A study of Mus musculus with 12 samples.

Results

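The comparison of *Fmr1* knockout with wild-type hippocampus in vehicle-treated mice rested on 6 of the 12 RNA-seq libraries of the study, 3 from KO-Veh mice (numbered RH7, RH10 and RH16) and 3 from WT-Veh mice (RH2, RH5 and RH15). KO mice lacked a functional *Fmr1* gene in all tissues (*Fmr1* −/y), and WT mice carried the intact gene (*Fmr1* +/y). Both groups were injected intraperitoneally with vehicle at 2 months of age, and hippocampi were collected at 6 months. The remaining 6 libraries came from KO and WT mice given Nutlin-3, an inhibitor of the binding between MDM2 and p53, on the same schedule (KO-Nut3 and WT-Nut3). Each library was labelled with its own mouse number. The sources do not state whether the sequenced mice carried the Nestin-GFP transgene that the study used elsewhere, and the labels name no extraction or sequencing batch.

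*Fmr1* encodes FMRP, an RNA-binding protein that holds back the translation of many neuronal mRNAs, among them those of postsynaptic scaffolds and ion channels. Loss of FMRP causes fragile X syndrome, and in the hippocampus it is known for exaggerated metabotropic glutamate receptor signaling and altered adult neurogenesis. Because FMRP acts mainly on translation and mRNA fate, mRNA abundance measures only part of what its loss does.

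Between 17150820 and 19562517 reads per library were assigned to genes, and 22592 genes had more than 20 reads in total over the 12 libraries. Levels are given as CPM, the reads of a gene scaled to a common library size with TMM factors, and differences as log2 fold changes of KO-Veh over WT-Veh from the quasi-likelihood test of edgeR. A gene was called differentially expressed (DEG) at an adjusted *P*-value under 0.05 over all genes tested. In bulk tissue, fewer cells of a type and less RNA per cell cannot be told apart. All 6 libraries had the pattern of male tissue, with *Xist* at 2 to 10 reads and the Y-linked *Ddx3y* at 958 to 1253 reads.

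The tissue label was checked against marker genes. *Prox1*, a transcription factor of dentate granule neurons, stood between 102 and 132 CPM in the 6 libraries, *Fibcd1*, a marker of CA1 pyramidal neurons, between 158 and 200 CPM, and *Rgs14*, a marker of CA2, between 95.9 and 118 CPM. The libraries were not alike in all genes. In WT-Veh RH15, 29 genes exceeded 1 CPM and 10 times the next highest vehicle library. They included *Dcpp2* (111 CPM), *Dcpp3* (98.2 CPM), *Muc19* (25.5 CPM) and *Bpifa2* (12.4 CPM), which are known from salivary and other secretory glands, the neutrophil gene *S100a9* (3.55 CPM) and the embryonic globin *Hbb-y* (7.11 CPM). *Dcpp2* was at 0 in 4 of the other vehicle libraries and at 0.155 CPM in KO-Veh RH7. KO-Veh RH10 had 1 such gene, the noncoding RNA *Rn7sk* (23.5 CPM), and the other 4 libraries had 0. WT-Veh RH5 stood apart in meningeal genes and KO-Veh RH16 in ependymal genes, as described with those groups.

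Between KO-Veh and WT-Veh, 4 genes (0.0177%) were DEGs in edgeR. *Fmr1*, *Col5a1* and *Wfs1* fell and Gm21887 rose in KO-Veh. Among all genes, 931 (4.12%) were lower and 696 (3.08%) higher at an unadjusted *P*-value under 0.05. A log2 fold change below 0 was found for 11532 of the 22592 genes, and one above 0 for 11046. The 3 KO-Veh libraries lay below all 3 WT-Veh libraries for 1460 genes (6.46%) and above them for 1333 genes (5.9%). DESeq2, the tool of the study, called 22 of the 22562 genes to which it gave an adjusted *P*-value (0.0975%), 13 lower and 9 higher, including the 4 DEGs of edgeR. In edgeR, 285 genes passed when all genes with at least 1 count were fitted, 21 with the mouse number (up to 8 or from 9) as a term, and 1, *Fmr1*, when all 12 libraries were fitted together. Both the 285 and the 21 included *Dcpp2*, *Dcpp3*, *Muc19*, *Bpifa2* and *Hbb-y*, which among the vehicle libraries were high in WT-Veh RH15 alone. With WT-Veh RH15 left out, edgeR called 11 genes, and with KO-Veh RH7 or KO-Veh RH10 left out it called 2, *Fmr1* and Gm21887.

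**Figure D1:**
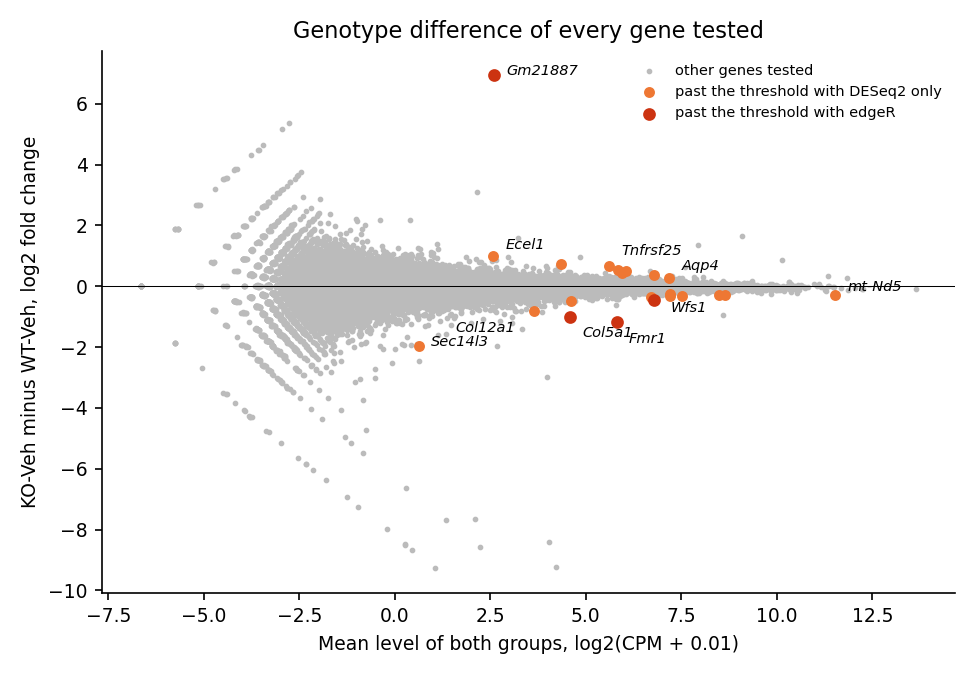
Log2 fold change of KO-Veh over WT-Veh (vertical axis) against the mean level of both groups on a log2 axis (horizontal axis) for the 22592 genes tested, with the 4 edgeR DEGs in red and the 18 genes called by DESeq2 alone in orange. The called genes other than Gm21887 lie within 2 log2 units of 0, and grey points far below 0 include genes that were high in WT-Veh RH15 alone.

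*Fmr1* (ENSMUSG00000000838, GRCm38 chromosome X, 68678541 to 68717963, plus strand) had 79.5, 75.3 and 77.7 CPM in WT-Veh RH2, RH5 and RH15. In KO-Veh RH7, RH10 and RH16 it had 32.7, 32.5 and 37.3 CPM. The groups did not overlap, and KO-Veh kept 44.1% of the WT-Veh mean (log2 fold change -1.18, standard error (SE) of 0.0690, edgeR adjusted *P*-value 1.76e-06). In all 6 fits that left out 1 library, *Fmr1* remained a DEG. The counts cover the whole gene, so how the remaining reads of the KO libraries were spread over its exons was not analysed here. The other members of the family did not pass the test. *Fxr1*, an RNA-binding paralog, had 52.5 to 62.6 CPM in WT-Veh and 58.4 to 67.5 CPM in KO-Veh (log2 fold change 0.12, edgeR adjusted *P*-value 0.789). *Fxr2*, the other paralog, had 140 to 152 CPM in WT-Veh and 140 to 157 CPM in KO-Veh (log2 fold change 0.03, edgeR adjusted *P*-value 0.949), and its sign turned with KO-Veh RH7 left out.

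Of 23 genes for FMRP, its paralogs and its partners, 2 were lower and 2 higher at an unadjusted *P*-value under 0.05, beside 4.12% and 3.08% of all genes, with a median log2 fold change of 0.03 against -0.0043 for all genes. Besides *Fmr1*, these were *Cyfip2*, an FMRP-binding subunit of the WAVE actin complex (log2 fold change -0.12), *Ago2*, the slicer of RNA interference (0.19), and *Nufip2*, an FMRP-interacting protein (0.21). The 5 genes tested on each side of *Fmr1* did not pass either. Among them, *Slitrk2*, a synaptic adhesion gene, had a log2 fold change of -0.14, *Aff2*, the gene of the neighbouring FRAXE fragile site, 0.04, and *Ids*, a lysosomal sulfatase, -0.05. Of 45 genes within 5 Mb of *Fmr1*, 2 were lower and 2 higher at that threshold, near the shares of all genes.

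The single edgeR DEG that rose was Gm21887 (ENSMUSG00000095562, GRCm38 chromosome X, 170009659 to 170019281, plus strand), which RefSeq lists as a synonym of *Erdr1*, erythroid differentiation regulator 1. Its reads numbered 1, 4 and 0 in WT-Veh RH2, RH5 and RH15, and 193, 211 and 243 in KO-Veh RH7, RH10 and RH16. The log2 fold change was 6.93 (SE 0.380, edgeR adjusted *P*-value 1.52e-06). The gene has a copy, Gm47283 (ENSMUSG00000096768, chromosome Y, 90784738 to 90816464, plus strand), and both lie in the pseudoautosomal region, the stretch in which X and Y pair and recombine. Of the 808 different 50-base windows in the GENCODE transcripts of Gm21887, 482 (59.65%) occur unchanged in transcripts of Gm47283, so reads cannot always be assigned to 1 copy.

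Gm47283 was detected in every library, with 406, 286 and 333 reads in WT-Veh RH2, RH5 and RH15 and 269, 342 and 339 reads in KO-Veh RH7, RH10 and RH16. Summed over both copies, the reads were 407, 290 and 333 in WT-Veh and 462, 553 and 582 in KO-Veh in the same order. With both copies counted as 1 gene, the log2 fold change was 0.64 (SE 0.159, edgeR adjusted *P*-value 0.552), and 2 genes were DEGs, *Fmr1* and *Col5a1*. In the mice given Nutlin-3, the levels of Gm21887 varied within the WT group. It had 1, 582 and 329 reads in WT-Nut3 RH1, RH9 and RH14 and 6, 0 and 4 reads in KO-Nut3 RH6, RH8 and RH13. The genotype difference was thus in the opposite direction in these libraries (log2 fold change -6.36, edgeR adjusted *P*-value 0.928), and the interaction of genotype and treatment had an adjusted *P*-value of 0.126. In a fit of all 12 libraries the vehicle difference of Gm21887 had an adjusted *P*-value of 0.869 in edgeR.

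The *Erdr1* primers used by the study for quantitative PCR are shown because they differ in which copy they match. Both are printed 5′ to 3′ in lower case, and no base is marked.
Forward: tgatgtcacccacgaaagca
Reverse: ttcctccgtgagaatcgctc
The forward primer matched 2 of 3 transcripts of Gm21887 (GRCm38 chrX:170018703-170018722, exon 3) and 4 of 4 transcripts of Gm47283 (chrY:90793325-90793344, exonic). The reverse primer, read as its reverse complement, matched 4 of 4 transcripts of Gm47283 (chrY:90816378-90816397, exonic) and 0 of 3 transcripts of Gm21887.

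**Figure D2:**
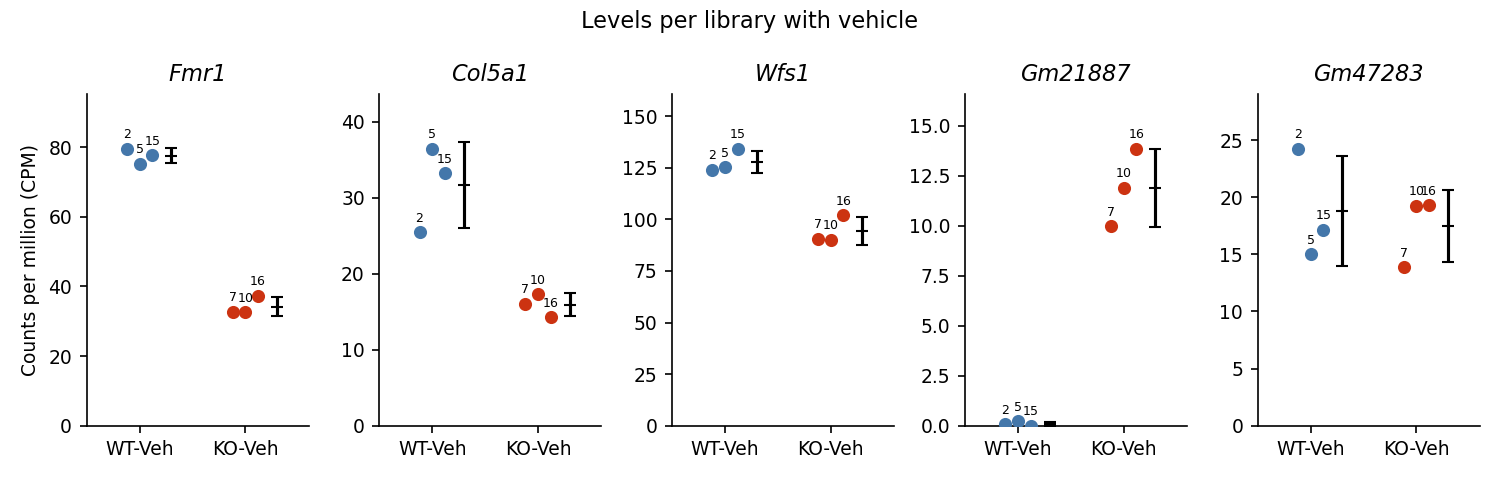
CPM in each vehicle library (points, labelled with the mouse number) of the 4 DEGs and of Gm47283, with the mean and SD of each group in black (n = 3). The groups are separate for *Fmr1*, *Col5a1*, *Wfs1* and Gm21887 and overlap for Gm47283.

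*Col5a1* (ENSMUSG00000026837, GRCm38 chromosome 2, 27886425 to 28039514) encodes a chain of type V collagen, which regulates the assembly of collagen fibrils. It had 25.4, 36.4 and 33.2 CPM in WT-Veh RH2, RH5 and RH15 and 16.1, 17.3 and 14.3 CPM in KO-Veh RH7, RH10 and RH16. KO-Veh had 50.1% of the WT-Veh mean, with no overlap of the groups (log2 fold change -0.997, SE 0.126, edgeR adjusted *P*-value 0.0146). It passed in 2 of 6 fits that left out 1 library. With WT-Veh RH5, KO-Veh RH7, KO-Veh RH10 or KO-Veh RH16 left out, its adjusted *P*-value in edgeR was 0.112, 0.155, 0.105 and 0.102, with log2 fold changes from -1.13 to -0.89 over the 6 fits.

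*Wfs1* (ENSMUSG00000039474, GRCm38 chromosome 5, 36966104 to 36989205) encodes wolframin, a membrane protein of the endoplasmic reticulum that is abundant in CA1 pyramidal neurons. It had 124, 125 and 134 CPM in WT-Veh RH2, RH5 and RH15 and 90.6, 90.2 and 102 CPM in KO-Veh RH7, RH10 and RH16. The lowest WT-Veh library lay above the highest KO-Veh library, and KO-Veh had 73.7% of the WT-Veh mean (log2 fold change -0.44, SE 0.0634, edgeR adjusted *P*-value 0.0478). The call was close to the threshold and held in 1 of 6 fits without 1 library, that without KO-Veh RH16 (adjusted *P*-value 0.0201 in edgeR). Without WT-Veh RH2, WT-Veh RH5, KO-Veh RH7, KO-Veh RH10 or WT-Veh RH15 it was 0.0522, 0.208, 0.420, 0.704 and 0.0539. Of 13 CA1 markers, 1 was lower (*Wfs1*) and 2 were higher at an unadjusted *P*-value under 0.05, beside 4.12% and 3.08% of all genes, namely *Lefty1*, a secreted inhibitor of Nodal (log2 fold change 0.34), and *Gpr161*, a ciliary receptor (0.16). Of 28 genes of the unfolded protein response, with which wolframin is connected, 1 was lower (*Wfs1*) and 3 were higher, with a median log2 fold change of 0.07. The 3 were the chaperone *Pdia4* (0.34), the transcription factor *Xbp1* (0.29) and *Manf*, a secreted protein of the endoplasmic reticulum (0.34).

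The 18 genes that passed with DESeq2 but not with edgeR included 10 lower and 8 higher in KO-Veh, and each had 3 KO-Veh libraries outside the range of WT-Veh. *Cacna1i*, a T-type calcium channel, had 117, 116 and 121 CPM in WT-Veh RH2, RH5 and RH15 and 92.0, 96.2 and 88.2 CPM in KO-Veh RH7, RH10 and RH16. Its log2 fold change was -0.36 (adjusted *P*-value 0.0796 in edgeR and 0.000665 in DESeq2). *Arhgap32*, a GTPase-activating protein of the postsynaptic density, had 200 to 208 CPM in WT-Veh and 163 to 166 CPM in KO-Veh (log2 fold change -0.31, edgeR adjusted *P*-value 0.100). Neither pair of groups overlapped, and both genes passed in edgeR with robust dispersion estimates. The related *Arhgap33*, which takes part in receptor trafficking at dendrites, had 159 to 164 CPM in WT-Veh and 131 to 138 CPM in KO-Veh (log2 fold change -0.27). *Dlgap3*, a scaffold that links PSD-95 to Shank proteins, had 369 to 430 CPM in WT-Veh and 316 to 341 CPM in KO-Veh (log2 fold change -0.29).

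The other lower genes of this set had varied roles. *mt-Nd6* and *mt-Nd5*, mitochondrially encoded subunits of complex I, had log2 fold changes of -0.29 and -0.28. Their ends overlap by a few bases on opposite strands of the mitochondrial genome, and the counts carry no strand. Of 15 mitochondrially encoded genes, 3 were lower and 2 higher at an unadjusted *P*-value under 0.05, beside 4.12% and 3.08% of all genes. The higher ones were the ribosomal RNAs *mt-Rnr1* (log2 fold change 0.34) and *mt-Rnr2* (0.27), both with overlapping groups. Both RNAs were higher in RH10, RH15 and RH16 than in RH2, RH5 and RH7. The part of mouse number in their differences was not tested. *Pygm*, muscle-type glycogen phosphorylase, had a log2 fold change of -0.48, *Rreb1*, a zinc-finger transcription factor, -0.31, and *Col12a1*, a fibril-associated collagen, -0.81. *Sec14l3*, a lipid-binding protein, had 1.37 to 3.19 CPM in WT-Veh and 0.395 to 0.774 CPM in KO-Veh (log2 fold change -1.98).

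Among the higher genes of the set, 2 belong to the heat shock response. *Hspa1b*, an inducible HSP70, had 17.4, 14.8 and 13.5 CPM in WT-Veh RH2, RH5 and RH15 and 20.5, 32.2 and 23.6 CPM in KO-Veh RH7, RH10 and RH16. *Dnajb1*, its HSP40 cochaperone, had 37.7 to 53.4 CPM in WT-Veh and 64.1 to 74.2 CPM in KO-Veh. Their log2 fold changes were 0.74 and 0.55, with adjusted *P*-values of 0.313 and 0.303 in edgeR. *Tnfrsf25*, a death receptor of the TNF receptor family, had the smallest adjusted *P*-value of the higher genes in edgeR other than Gm21887 (0.149, log2 fold change 0.67). It had 30.6, 35.7 and 45.3 CPM in WT-Veh RH2, RH5 and RH15 and 54.7, 64.8 and 58.7 CPM in KO-Veh RH7, RH10 and RH16, and it passed in edgeR with WT-Veh RH15 left out. *Aqp4*, the water channel of astrocyte endfeet, had 131 to 133 CPM in WT-Veh and 152 to 163 CPM in KO-Veh (log2 fold change 0.26). *Dio2*, which activates thyroid hormone in glia, had a log2 fold change of 0.50, *P4ha1*, a collagen prolyl hydroxylase, 0.43, *Kdm7a*, a histone demethylase, 0.37, and *Ecel1*, a neuronal endopeptidase, 1.01.

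Of the genes called by neither tool, those with the smallest *P*-values and separate groups included *Bche*, butyrylcholinesterase, with 7.31 to 8.14 CPM in WT-Veh and 3.83 to 4.84 CPM in KO-Veh (log2 fold change -0.79). *Hivep1*, a zinc-finger transcription factor, had a log2 fold change of -0.37 and *Fam214a* -0.30. On the higher side, *Crhbp*, a binding protein for corticotropin-releasing hormone, had 22.04 to 24.1 CPM in WT-Veh and 29.0 to 30.2 CPM in KO-Veh (log2 fold change 0.35). *Rnft1*, a ubiquitin ligase of the endoplasmic reticulum, had a log2 fold change of 0.44 and *Ppp1r3c*, which targets a phosphatase to glycogen, 0.27. The adjusted *P*-values of these 6 genes in edgeR lay between 0.313 and 0.470.

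FMRP target mRNAs were examined as a list of 48 well-known targets, all of which were tested. At an unadjusted *P*-value under 0.05, 9 were lower and 1 was higher in KO-Veh, beside 4.12% and 3.08% of all genes. In edgeR 0 of them passed the adjusted threshold, and in DESeq2 1 did, *Dlgap3*. The groups did not overlap for 12 of the 48, all lower, beside 6.46% of all genes in that direction. The median log2 fold change was -0.09, against -0.0043 for all genes, and 44 of the 48 had a value below 0, beside 11532 of all 22592 genes. These differences were small, with the middle of the list between -0.13 and -0.04. The summed level was 28247, 26351 and 25500 CPM in WT-Veh RH2, RH5 and RH15. It was 25164, 24798 and 25715 CPM in KO-Veh RH7, RH10 and RH16, so the sums overlapped. The targets were long transcripts, with a median of 9.90 kb of exon sequence against 3.34 kb for all genes. Among genes above 1 CPM in the longest decile of transcripts, the median log2 fold change was -0.01 and 9.95% had KO-Veh below WT-Veh without overlap. Without WT-Veh RH15, 17 of the targets were lower at an unadjusted *P*-value under 0.05, and without WT-Veh RH2, 5 were.

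*Shank1*, a master scaffold of the postsynaptic density, had 876, 841 and 763 CPM in WT-Veh RH2, RH5 and RH15 and 715, 703 and 717 CPM in KO-Veh RH7, RH10 and RH16. *Shank3*, its paralog, had 436, 392 and 387 CPM in WT-Veh and 355, 346 and 368 CPM in KO-Veh in the same order. *Map1b*, a microtubule-associated protein and one of the first FMRP targets described, had 1441, 1419 and 1327 CPM in WT-Veh and 1250, 1217 and 1236 CPM in KO-Veh. All 3 genes were lower in every KO-Veh library, by log2 fold changes of -0.22, -0.18 and -0.18. The adjusted *P*-values in edgeR were 0.594, 0.610 and 0.608. *Camk2a*, a synaptic kinase and the most abundant target, had a log2 fold change of -0.07 with overlapping groups. Of the 4 targets above 0, *Arc*, an activity-induced gene, was the one with an unadjusted *P*-value under 0.05, with 91.7, 153 and 207 CPM in WT-Veh RH2, RH5 and RH15 and 201, 232 and 270 CPM in KO-Veh RH7, RH10 and RH16 (log2 fold change 0.64, edgeR adjusted *P*-value 0.608).

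The Nutlin-3 libraries share no samples with the vehicle comparison and gave a second genotype difference. There, 1 gene (0.00443%) was a DEG between KO-Nut3 and WT-Nut3, *Fmr1* (log2 fold change -1.27, edgeR adjusted *P*-value 0.00405), with an adjusted *P*-value of 0.0991 when WT-Nut3 RH14 was left out. Several of these libraries stood apart in tissue markers. Choroid plexus markers summed to 6864 CPM in WT-Nut3 RH9, 5319 CPM in KO-Nut3 RH6 and 7336 CPM in KO-Nut3 RH13, against 250.5 to 769 CPM in the other 3 libraries. Meningeal and stromal fibroblast markers summed to 2383 CPM in KO-Nut3 RH8, against 425 to 1296 CPM in the other 5. CA1 markers summed to 811 CPM in RH6, against 1136 and 1139 CPM in KO-Nut3 RH8 and RH13 and 1192 to 1241 CPM in WT-Nut3. Thalamus markers summed to 832 CPM in RH6, against 486 to 544 CPM in the other 5 libraries, and the FMRP targets to 21487 CPM, against 24299 to 26825 CPM. Of the 48 targets, 38 (79.2%) lay on the same side of 0 as with vehicle, against 54.5% of all genes, and their median log2 fold change was -0.13. With 1 Nutlin-3 library left out, the number on the same side ranged from 35 (72.9%) without WT-Nut3 RH1, against 50.2% of all genes, to 44 (91.7%) without KO-Nut3 RH6, against 57.5% of all genes, and the median from -0.14 to -0.09. The targets on the same side with an unadjusted *P*-value under 0.05 with Nutlin-3 numbered 10 of 48, beside 696 of all 22592 genes. Without WT-Nut3 RH1 they numbered 3, beside 379 of all genes. *Dlgap3*, *Shank1* and *Shank3* had log2 fold changes of -0.37, -0.30 and -0.37 (unadjusted *P*-values 0.00122, 0.00522 and 0.00709 in edgeR). With 1 Nutlin-3 library left out, they ranged from -0.43 to -0.30, from -0.35 to -0.22 and from -0.45 to -0.24. *Arc* had -0.13. Of the 1627 genes with an unadjusted *P*-value under 0.05 with vehicle, 1010 (62.1%) lay on the same side with Nutlin-3. Of these, 120 also had an unadjusted *P*-value under 0.05 there, beside 696 of all 22592 genes. Without WT-Nut3 RH1, 845 (51.9%) lay on the same side, against 50.2% of all genes, and 61 of these had such a *P*-value, beside 379 of all genes.

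**Figure D3:**
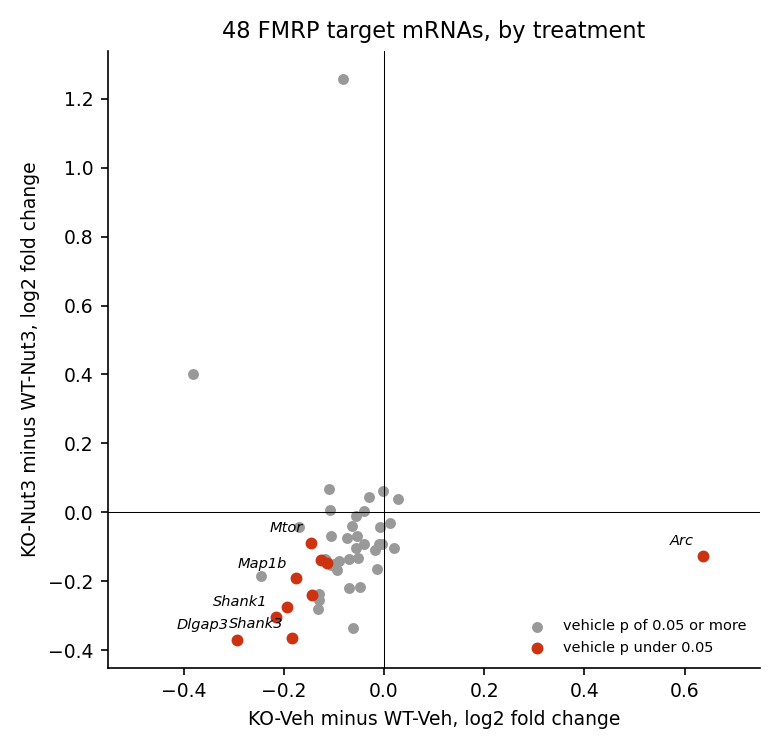
Log2 fold change of KO over WT for 48 FMRP target mRNAs with vehicle (horizontal axis) and with Nutlin-3 (vertical axis), with targets whose unadjusted vehicle *P*-value was under 0.05 in red. Most points lie at the lower left, 38 of 48 are on the same side of 0 in both, and *Arc* is at the right.

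Further lists of neuronal signaling genes are given beside the 4.12% of all genes that were lower and the 3.08% that were higher at an unadjusted *P*-value under 0.05. Of 24 ion channel genes bound by FMRP or altered in fragile X models, 4 were lower and 0 higher at an unadjusted *P*-value under 0.05, with a median log2 fold change of -0.07. They were the potassium channels *Kcnq3* (-0.18), *Kcnma1* (-0.11) and *Kcna1* (-0.11) and the L-type calcium channel *Cacna1c* (-0.19). *Kcnma1* was also counted with the FMRP targets. Of 44 genes for glutamate receptors and postsynaptic scaffolds, 5 were lower and 1 was higher. Among the lower ones, *Dlgap3*, *Shank1* and *Shank3* were already counted with the FMRP targets, and the others were *Grid1* and *Cacng3*. Of 26 genes for vesicle release, 3 were lower and 0 higher, among them *Cplx1*, complexin 1 (-0.17). Of 33 genes of the GABA system, 1 was lower and 2 were higher. The neuropeptide gene *Npy* had 21.01 to 23.6 CPM in WT-Veh and 26.4 to 29.2 CPM in KO-Veh (log2 fold change 0.31), and *Sst*, somatostatin, had a log2 fold change of 0.16. Of 31 monoamine and acetylcholine receptor genes, 4 were lower and 1 was higher, among them the muscarinic receptor *Chrm3* (-0.20) and the dopamine receptor *Drd1* (-0.47). Of 30 genes of mTOR signaling and translation control, 2 were lower and 3 higher, with a median log2 fold change of 0.01. The translation repressor *Eif4ebp2* had a log2 fold change of 0.16 and the kinase *Mknk2*, which phosphorylates eIF4E, 0.28.

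Immediate early genes, which neurons switch on within minutes of activity, were examined as a list. Of 29 tested, 8 were higher and 0 lower at an unadjusted *P*-value under 0.05, beside 3.08% and 4.12% of all genes, 0 passed the adjusted threshold with edgeR or DESeq2, and the median log2 fold change was 0.28. Their summed level was 1359, 1552 and 1939 CPM in WT-Veh RH2, RH5 and RH15 and 1765, 1892 and 2134 CPM in KO-Veh RH7, RH10 and RH16. The groups overlapped, since WT-Veh RH15 exceeded 2 of the KO-Veh libraries. Within each vehicle group the sum rose with mouse number, and the KO-Veh mice had RH10 and RH16 among the later numbers, the WT-Veh mice RH15. With Nutlin-3 the sum rose with mouse number in WT-Nut3 and not in KO-Nut3. The part of mouse number in the vehicle difference was not tested for this list. *Dusp6*, a phosphatase of the ERK pathway, had 47.3 to 59.5 CPM in WT-Veh and 59.8 to 66.6 CPM in KO-Veh (log2 fold change 0.31). *Fosl2*, a subunit of AP-1, had 62.9 to 82.0 CPM in WT-Veh and 86.2 to 88.6 CPM in KO-Veh (log2 fold change 0.27). *Fos*, the classic member, had 5.91, 13.3 and 25.6 CPM in WT-Veh and 19.4, 19.96 and 32.1 CPM in KO-Veh, so its groups overlapped. Without WT-Veh RH15, 17 of the 29 were higher at an unadjusted *P*-value under 0.05 and the median was 0.41. Without KO-Veh RH16, 4 were higher and the median was 0.18. Without WT-Veh RH2, 5 were higher and the median was 0.12. With Nutlin-3 the list had a median log2 fold change of -0.17 (from -0.28 without KO-Nut3 RH8 to -0.12 without KO-Nut3 RH6).

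**Figure D4:**
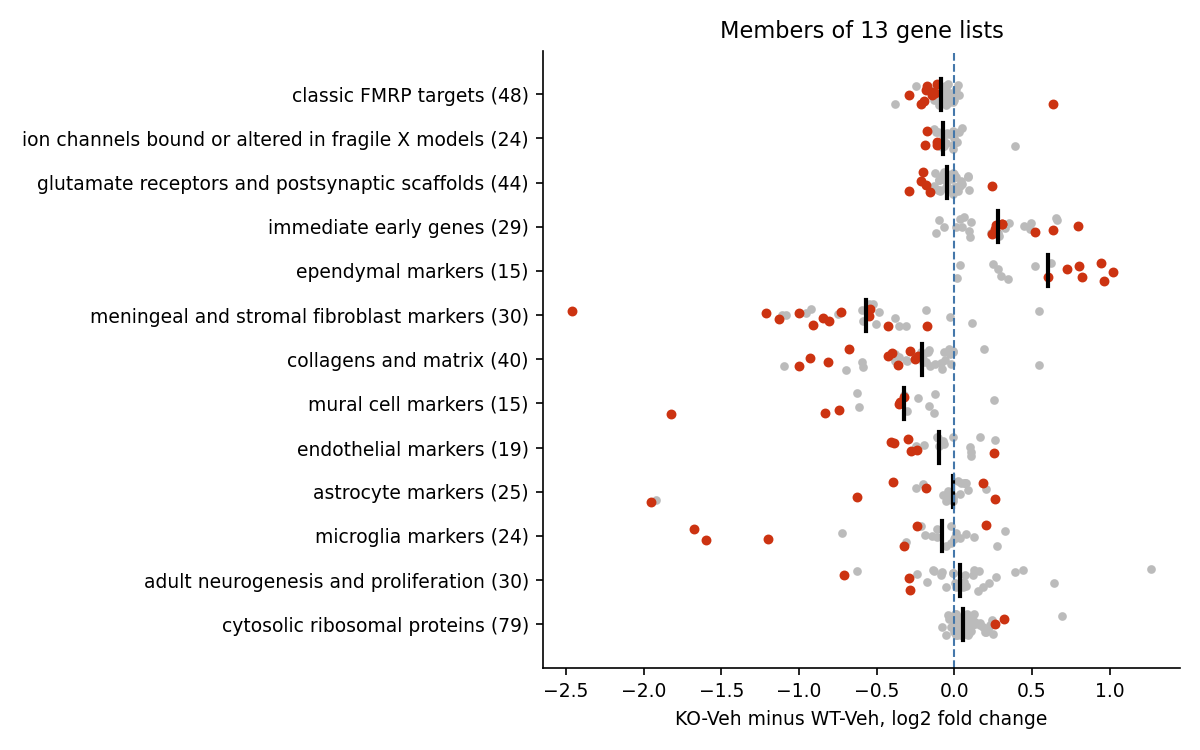
Log2 fold change of KO-Veh over WT-Veh for the members of 13 gene lists (points, red where the unadjusted *P*-value was under 0.05), with the list medians as black bars, the median of all genes as a dashed line and the number of genes tested in parentheses. Ependymal markers and immediate early genes have medians of 0.61 and 0.28, and meningeal and stromal fibroblast markers one of -0.57.

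Genes of the brain coverings and vessel walls differed widely between WT-Veh libraries. Of 30 markers of meningeal and stromal fibroblasts, 12 were lower and 0 higher at an unadjusted *P*-value under 0.05, beside 4.12% and 3.08% of all genes, the median log2 fold change was -0.57, and *Col5a1* was the only DEG. The summed level was 463, 1628 and 731 CPM in WT-Veh RH2, RH5 and RH15 and 624, 560 and 586 CPM in KO-Veh RH7, RH10 and RH16, so that WT-Veh RH5 was highest and WT-Veh RH2 lowest of all 6. *Ptgds*, prostaglandin D synthase of the leptomeninges and the most abundant member, had 134, 1047 and 354 CPM in WT-Veh and 294, 250 and 248 CPM in KO-Veh. *Ogn*, a small leucine-rich proteoglycan, had 4.96, 16.5 and 6.33 CPM in WT-Veh and 4.90, 4.28 and 3.53 CPM in KO-Veh. *Islr*, a secreted immunoglobulin-domain protein of stromal cells, had 11.6 to 19.6 CPM in WT-Veh and 8.79 to 11.6 CPM in KO-Veh. Without WT-Veh RH5, 4 of the 30 were lower at an unadjusted *P*-value under 0.05 and the median was -0.12. Without WT-Veh RH2, 23 were lower and the median was -0.88, and without KO-Veh RH10, 7 were lower. With Nutlin-3 the median of the list was 1.02, on the higher side. *Col5a1*, like the list, was highest in WT-Veh RH5, and its log2 fold change without that library was -0.89. In WT-Veh RH2, where the list was lowest, it was above each KO-Veh library. The part of meningeal content in its difference was not tested.

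Of 40 collagen and matrix genes, 10 were lower and 0 higher at an unadjusted *P*-value under 0.05, beside 4.12% and 3.08% of all genes, and the median log2 fold change was -0.21 (0.14 with Nutlin-3). *Col12a1* had 14.6, 19.02 and 14.2 CPM in WT-Veh RH2, RH5 and RH15 and 10.1, 10.2 and 6.89 CPM in KO-Veh RH7, RH10 and RH16. *Col16a1*, a fibril-associated collagen, had 19.3 to 21.6 CPM in WT-Veh and 13.6 to 17.7 CPM in KO-Veh (log2 fold change -0.36), and it was not highest in WT-Veh RH5. Without WT-Veh RH5, 5 of the 40 were lower at an unadjusted *P*-value under 0.05 and the median was -0.12, and without KO-Veh RH7, 6 were lower. Of 15 mural cell markers, 6 were lower and 0 higher, with a median of -0.32 (0.25 with Nutlin-3). *Pdgfrb*, the receptor that recruits pericytes, had 31.8, 28.8 and 24.6 CPM in WT-Veh and 24.4, 19.7 and 22.6 CPM in KO-Veh. *Cspg4*, the NG2 proteoglycan of pericytes and oligodendrocyte precursors, had 31.3 to 33.7 CPM in WT-Veh and 22.5 to 28.3 CPM in KO-Veh. Without WT-Veh RH5, 3 mural markers were lower at an unadjusted *P*-value under 0.05, and without WT-Veh RH2, 10 were. Of 19 endothelial markers, 5 were lower and 1 was higher, with *Cldn5*, the tight junction claudin of the blood-brain barrier, at 34.5 to 46.9 CPM in WT-Veh and 26.9 to 33.0 CPM in KO-Veh (log2 fold change -0.41). The part of the meningeal content of the libraries in these differences was not tested.

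Ependymal markers are genes of the ciliated cells that line the ventricles. All 15 tested had a log2 fold change above 0, beside 11046 of all 22592 genes, and the median was 0.61. Of the 15, 7 had an unadjusted *P*-value under 0.05, beside 3.08% of all genes, and 0 passed the adjusted threshold with edgeR or DESeq2. Their summed level was 39.0, 49.9 and 54.2 CPM in WT-Veh RH2, RH5 and RH15 and 58.5, 50.8 and 91.5 CPM in KO-Veh RH7, RH10 and RH16. KO-Veh RH10 lay within the WT-Veh range and KO-Veh RH16 far above it. KO-Veh RH16 also had 51.1 CPM of *Zic1*, a member of the thalamus list, against 8.51 to 18.3 CPM in the other vehicle libraries. The thalamus list summed to 538 CPM in KO-Veh RH16, against 480 to 512 CPM. *Slc17a6*, another member, was lowest in that library (9.63 CPM). *Foxj1*, the master transcription factor of motile cilia, had 8.24, 8.67 and 12.3 CPM in WT-Veh and 12.5, 11.4 and 20.7 CPM in KO-Veh. Without KO-Veh RH16, 0 of the 15 reached an unadjusted *P*-value under 0.05 in edgeR and the median was 0.26. Without WT-Veh RH2, 1 had one, and without WT-Veh RH5, 4 had. With Nutlin-3 the median of the list was 0.51, and 12 of the 15 lay on the same side of 0 as with vehicle, against 54.5% of all genes. The list summed to 53.7, 89.0 and 70.2 CPM in WT-Nut3 RH1, RH9 and RH14. In KO-Nut3 RH6, RH8 and RH13 it summed to 96.8, 82.1 and 108 CPM. The highest sums, in RH13, RH6 and RH9, were in the libraries with the most choroid plexus markers. The part of this tissue content in the Nutlin-3 difference was not tested. In the vehicle libraries choroid plexus markers were low, with *Ttr*, transthyretin, at 5.15 to 9.56 CPM in WT-Veh and 3.15 to 15.2 CPM in KO-Veh. Of 23 tested, 2 were lower and 3 higher, beside 4.12% and 3.08% of all genes.

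**Figure D5:**
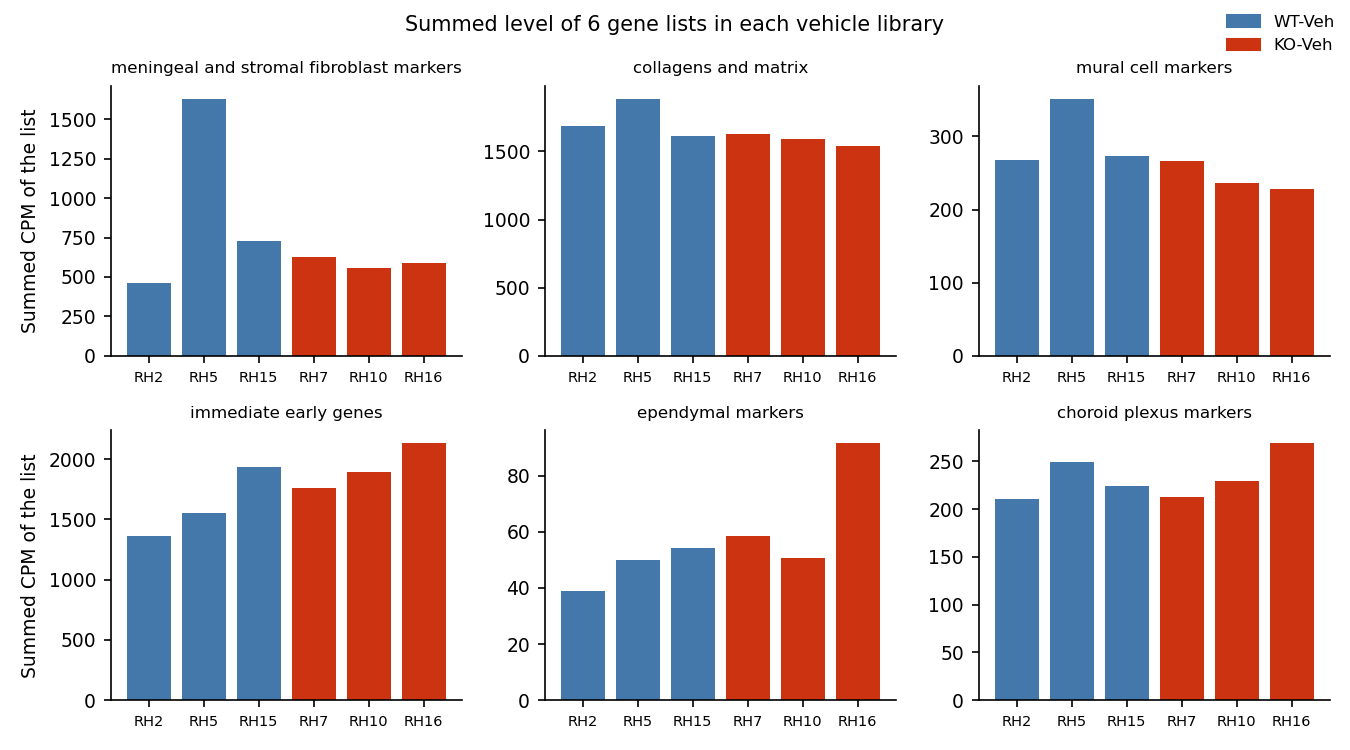
Summed CPM of the members of 6 gene lists in each WT-Veh (blue) and KO-Veh (red) library. WT-Veh RH5 has the highest bar for meningeal and stromal fibroblast markers (1628 CPM) and KO-Veh RH16 the highest for ependymal markers (91.5 CPM).

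Glial and immune lists were read beside the 4.12% of all genes that were lower and the 3.08% that were higher. Of all 22592 genes, 11532 lay below 0 and 11046 above 0. Of 25 astrocyte markers, 4 were lower and 2 higher at an unadjusted *P*-value under 0.05, with a median log2 fold change of -0.01. The higher ones were *Aqp4* and *Gfap*, the astrocyte intermediate filament, at 349 to 374 CPM in WT-Veh and 392 to 435 CPM in KO-Veh (log2 fold change 0.18). *Serpina3n*, a marker of reactive astrocytes, had 39.7 to 52.3 CPM in WT-Veh and 33.1 to 35.5 CPM in KO-Veh (log2 fold change -0.39). Of 24 microglia and border macrophage markers, 5 were lower and 1 was higher, with a median of -0.08. *Cd74*, the invariant chain of MHC class II, had 0.896, 5.15 and 3.71 CPM in WT-Veh RH2, RH5 and RH15 and 0.902 to 1.25 CPM in KO-Veh, so WT-Veh RH2 lay with the KO-Veh libraries. Of 27 interferon-stimulated genes, 18 lay below 0, with a median of -0.09, and 1 was higher, the transcription factor *Irf9*, with 11.0 to 14.4 CPM in WT-Veh and 17.4 to 19.1 CPM in KO-Veh (log2 fold change 0.48). Of 26 oligodendrocyte and myelin markers, 2 were lower, *Cspg4* and *Pdgfra*, both known from precursor cells, while 20 lay above 0 and the median log2 fold change was 0.09. *Cspg4* was also counted with the mural cell markers, and *Pdgfra* with the meningeal and stromal fibroblast markers.

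Genes of adult neurogenesis, the process that the study followed in these mice, were tested as a list. Of 30, 3 were lower and 0 higher at an unadjusted *P*-value under 0.05, beside 4.12% and 3.08% of all genes, with a median log2 fold change of 0.03. *Tbr1*, a factor of postmitotic glutamatergic neurons, had a log2 fold change of -0.29, and *Ccnd1*, cyclin D1, -0.29. *Tbr1* is also a marker of subiculum and cortex, a list in which 12 of 16 genes lay below 0, beside 11532 of all 22592 genes, with a median of -0.12. The list summed to 853 to 869 CPM in WT-Veh and 786 to 809 CPM in KO-Veh, without overlap, and its part in the difference of *Tbr1* was not tested. *Dcx*, a marker of immature neurons, had 26.9 to 33.1 CPM in WT-Veh and 23.3 to 27.9 CPM in KO-Veh, and *Sox2*, a stem cell factor, 39.2 to 49.9 CPM and 38.5 to 45.7 CPM, both with overlapping groups. *Mdm2*, the ubiquitin ligase that Nutlin-3 blocks, had 52.4 to 57.9 CPM in WT-Veh and 52.0 to 62.6 CPM in KO-Veh (log2 fold change 0.10, edgeR adjusted *P*-value 0.815). *Trp53*, which encodes p53, had a log2 fold change of 0.06. Of 30 genes of the p53 pathway, 2 were lower and 0 higher.

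Whether the genotype difference depended on treatment was tested with the interaction term over 12 libraries. In edgeR, 0 genes passed (smallest adjusted *P*-value 0.126), 942 had an unadjusted *P*-value under 0.05, and DESeq2 called 1 gene, Gm21887. *Wfs1* had 142, 100 and 121 CPM in WT-Nut3 RH1, RH9 and RH14. In KO-Nut3 RH6, RH8 and RH13 it had 116, 81.7 and 78.8 CPM, so its groups overlapped. Its log2 fold change with Nutlin-3 was -0.40 (unadjusted *P*-value 0.0356, adjusted *P*-value 0.928 in edgeR), beside -0.44 with vehicle. With 1 Nutlin-3 library left out, it ranged from -0.60 to -0.27, with unadjusted *P*-values from 0.000689 to 0.154 in edgeR. The interaction for *Wfs1* had an unadjusted *P*-value of 0.832. *Col5a1* had 28.8, 22.5 and 16.8 CPM in WT-Nut3 RH1, RH9 and RH14 and 19.2, 23.0 and 16.7 CPM in KO-Nut3 RH6, RH8 and RH13, and its groups overlapped (log2 fold change -0.22, from -0.39 without WT-Nut3 RH14 to -0.0095 without WT-Nut3 RH1). The difference between its genotype effects had an unadjusted *P*-value of 0.00781 and an adjusted *P*-value of 0.994 in edgeR.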

How the data were processed

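Hippocampal poly(A) RNA was sequenced, and the authors mapped the reads to mm10 with STAR (version not given in the sources used here). The deposited files hold raw read counts per gene from STAR. The column without strand was used, because both strand columns had similar totals. The labels describe single reads and the study's methods paired ends. The deposited table of the authors' comparisons (fold changes and *P*-values) was not used.

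A gene was kept if its counts summed to over 20 across the 12 libraries. Group differences were fitted on the 6 vehicle libraries with edgeR 4.0.16 (TMM, quasi-likelihood test, Benjamini-Hochberg adjustment, two-sided) in R 4.3.3, with DESeq2 1.42.0 and limma 3.58.1 as alternatives, and tested on simulated data. Of 55421 gene identifiers, 55240 matched GENCODE M21 (GRCm38). Named were *Fmr1* and its paralogs, the calls of each tool, the 10 genes per direction with the smallest *P*-values among those with separate groups and at least 1 CPM, the 5 genes tested on each side of *Fmr1*, and in each list the calls, up to 4 genes with the smallest *P*-values and the most abundant. *Fibcd1*, *Prox1*, *Dcx*, *Sox2*, *Mdm2*, *Trp53*, *Fos* and *Ttr*, and the genes high in 1 library, were added after their values were seen. Members and lists were chosen with earlier results of these data known. The *P*-values measure the spread between the mice of each group. Some genes of these lists are not reported here.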

Additional observations from a re-analysis of the deposited data

Results flagged for a closer look

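*Tgfbr2*, a receptor of TGF-beta, was lower in every KO-Veh library than in every WT-Veh library (16.1 to 18.6 CPM against 19.5 to 22.9 CPM, log2 fold change -0.32) and higher in every KO-Nut3 library than in every WT-Nut3 library (24.6 to 25.9 CPM against 20.8 to 21.7 CPM, log2 fold change 0.25). The difference between these genotype effects was 0.58 on the log2 scale, with an unadjusted *P*-value of 0.000332 and an adjusted *P*-value of 0.994 for the interaction in edgeR. *Tgfbr2* was picked among the named genes because its genotype groups separated in opposite directions with vehicle and Nutlin-3. The unadjusted *P*-value measures that same contrast, so it gives no separate evidence.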

How the results depend on the processing

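The number of DEGs was 22 with DESeq2, 285 with all genes of at least 1 count, 1 with all 12 libraries in one fit, 21 with mouse number up to 8 or from 9 as a term, 2 with Gm21887 and Gm47283 summed (chosen after seeing the data), and 2 to 11 without 1 library. Both the 285 and the 21 included genes that among the vehicle libraries were high in WT-Veh RH15 alone, such as *Dcpp2* and *Muc19*. The cause of the differing numbers was not tested. *Fmr1* passed under every alternative, with log2 fold changes of -1.24 to -1.14 without 1 library. Adjusted *P*-values over the alternatives ran from 6.15e-97 to 0.869 for Gm21887, 2.04e-18 to 0.522 for *Col5a1* and 9.94e-09 to 0.869 for *Wfs1*. *Wfs1* also missed the threshold with limma-voom (0.0600) and filterByExpr (0.0756). The log2 fold change of *Fxr2* ranged from -0.0020 (without KO-Veh RH7) to 0.079 without 1 library.

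Without 1 library, list medians ranged from -0.11 to -0.06 for FMRP targets, 0.12 to 0.41 for immediate early genes, -0.88 to -0.12 for meningeal markers, 0.26 to 0.76 for ependymal markers, -0.44 to -0.27 for mural markers and -0.26 to -0.12 for collagens and matrix. Members with an unadjusted *P*-value under 0.05 in the leading direction numbered 5 to 17, 4 to 17, 4 to 23, 0 to 7, 3 to 10 and 5 to 13 in that order. Between KO-Nut3 and WT-Nut3, DESeq2 called 7 genes, and 0 to 7 passed without 1 library. For the interaction, DESeq2 called 1 gene and 0 to 1 passed without 1 library. The groups held 3 mice each, and 22592 genes were tested. Small differences such as those of the FMRP targets did not pass gene by gene in edgeR, and *Dlgap3* passed in DESeq2. The part of group size and gene number in this was not tested. Leaving out each Nutlin-3 library for the lists was chosen after seeing the data. No paired analysis was possible because the mouse numbers are not shared between groups.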

Other observations

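At an unadjusted *P*-value under 0.05, 3.08% of all genes were higher and 4.12% lower in KO-Veh. Of all 22592 genes, 11046 had a log2 fold change above 0. Of 79 cytosolic ribosomal protein genes, 70 had a log2 fold change above 0, with a median of 0.05, and 2 were higher at that threshold (*Rps29*, 0.32, and *Rpl37a*, 0.26). Over the 12 libraries, both genes followed mouse number. *Rps29* had 53.5 to 67.8 CPM up to RH8 and 77.6 to 97.8 CPM from RH9, and *Rpl37a* 71.5 to 89.6 CPM and 101 to 112 CPM. From RH9 on, KO-Veh had RH10 and RH16, and WT-Veh had RH15. With Nutlin-3 the list median was -7.3e-05. The part of mouse number in these differences was not tested for this list. Of 34 nuclear genes of the respiratory chain, 27 lay above 0 with a median of 0.05, and 1 was higher, *Ndufa2*, a subunit of complex I, at 31.4 to 36.9 CPM in WT-Veh and 39.9 to 42.9 CPM in KO-Veh. The shortest decile of transcripts above 1 CPM had a median log2 fold change of 0.03. Of 30 genes of sterol synthesis and lipid transport, 6 were lower and 2 higher, among them *Cyp46a1*, which turns cholesterol over in neurons (-0.15), and *Idi1*, an isomerase early in the pathway (0.38).

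In perineuronal nets, the matrix around fast-spiking interneurons, 1 of 15 genes was higher at an unadjusted *P*-value under 0.05. *Hapln1*, the link protein, had 25.2 to 26.5 CPM in WT-Veh and 29.2 to 36.8 CPM in KO-Veh (log2 fold change 0.32, edgeR adjusted *P*-value 0.608). Of 45 genes of Wnt, BMP and TGF-beta signaling, 6 were lower and 2 higher, among them the BMP antagonist *Nog* (-0.44) and the ligand *Wnt4* (-0.44). Of 21 clock genes, 1 was lower, *Npas2* (-0.21), and 1 higher, *Per1* (0.26). Of 30 chromatin enzymes, 0 reached an unadjusted *P*-value under 0.05 in edgeR.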
